A study of Mus musculus with 9 samples.

Results

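Lungs of mice that received homoharringtonine after bleomycin were compared with lungs of mice that received bleomycin alone, over 41345 array probe sets. The comparison uses 6 of the 9 arrays of the series, 3 in each group, and was chosen by the sample labels alone. The animals were male C57BL/6J mice, instilled into the trachea at 8 weeks of age and 11 weeks old at sampling. In the first group the instillation was 2 U/kg bleomycin, and homoharringtonine at 0.545 mg/kg was injected into the peritoneum from 5 days later, 2 times a week for 15 days. The bleomycin mice received the same instillation and, by the stated protocol, injections of vehicle on the same schedule. The remaining 3 arrays are from mice given PBS into the trachea and then vehicle; they entered the fit as vehicle lungs and are given below as the level without injury. Each array holds total RNA of whole lung, so fewer cells of a type and less RNA per cell cannot be told apart.

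Bleomycin breaks DNA, and in rodents its instillation injures the alveolar epithelium, draws in monocytes and neutrophils and is followed by a phase of matrix deposition by fibroblasts. Homoharringtonine, an alkaloid of Cephalotaxus trees, binds the peptidyl transferase centre of the ribosome and blocks the first steps of elongation, and it is used against myeloid leukaemia. Several of the genes described below are known targets of the glucocorticoid receptor, a nuclear receptor that binds palindromic DNA elements and induces genes such as Fkbp5 and Tat, or of the metal-sensing factor Mtf1, which induces metallothioneins.

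Mt2, Serpina3n and Map3k6 fell with homoharringtonine, and Mt1 lies beside Mt2 on chromosome 8. Promoter sequence of these 4 genes, from RefSeq on build GRCm38.p6 and all on the plus strand, is shown for the metal and steroid elements it holds. The windows of Mt2 (chr8:94172368-94172667) and Mt1 (chr8:94178839-94179138) are given whole, with each match to TGCGCNC or TGCACNC, the core of the metal response element, in capitals. For Serpina3n (chr12:104406586-104406686) and Map3k6 (chr4:133240593-133240693) the stretch of 101 bases around a long glucocorticoid receptor match is given, which is ACANNNTGT followed by any base and a C, with capitals over the run that matches on both strands.
Mt2: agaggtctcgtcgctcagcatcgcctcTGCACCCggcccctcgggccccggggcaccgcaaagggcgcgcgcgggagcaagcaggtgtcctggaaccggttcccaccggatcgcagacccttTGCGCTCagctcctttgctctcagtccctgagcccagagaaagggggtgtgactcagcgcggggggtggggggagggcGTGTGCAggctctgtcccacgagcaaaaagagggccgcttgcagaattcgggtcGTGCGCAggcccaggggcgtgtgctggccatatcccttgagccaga
Mt1: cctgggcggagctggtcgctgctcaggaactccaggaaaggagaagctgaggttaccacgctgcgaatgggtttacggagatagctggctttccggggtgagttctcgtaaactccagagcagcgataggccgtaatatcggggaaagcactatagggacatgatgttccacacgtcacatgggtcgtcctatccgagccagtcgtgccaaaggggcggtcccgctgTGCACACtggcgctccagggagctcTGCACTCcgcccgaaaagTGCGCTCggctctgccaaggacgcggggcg
Serpina3n: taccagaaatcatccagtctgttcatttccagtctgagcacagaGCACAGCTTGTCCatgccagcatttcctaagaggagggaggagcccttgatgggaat
Map3k6: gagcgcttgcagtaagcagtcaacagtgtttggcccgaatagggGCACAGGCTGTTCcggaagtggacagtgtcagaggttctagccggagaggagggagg
Mt2 holds 4 and Mt1 holds 3 such metal-type matches, and 1.31% of the 32851 promoter windows in the table hold at least 3. Any match to either metal motif, on either strand, was found in 25.7% of all windows. The long receptor motif was found on either strand in 3.11% of all windows, and the ACANNNTGT that it contains in 6.85%. The 24 called genes with promoter sequence in the table have 37 windows, of which 4 hold the long motif and 10 hold a metal-type match. The long motif was in windows of Map3k6, Serpina3n and Sgk1, which were lower, and Calcrl, which was higher. These matches describe letters in short windows and were not tested as binding sites.

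Homoharringtonine lungs differed from bleomycin lungs at 39 probe sets at an adjusted p under 0.05 in limma, 0.0943% of those tested, of which 16 (0.0387%) were higher and 23 (0.0556%) lower. Of these, 30 carry a gene symbol, 10 higher and 20 lower. All 39 passed a fold of 1.5 and 27 a fold of 2. At 26 of the 39 the mean of the homoharringtonine arrays lay between the bleomycin and the vehicle mean. By comparison, 209 probe sets (0.506%) were called between homoharringtonine and vehicle lungs and 3218 (7.78%) between bleomycin and vehicle lungs. These comparisons share arrays, so their values are only set side by side.

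The number of calls rested on individual arrays. The direction of each of the 30 named genes was kept under every one of the 17 other settings tried. Their homoharringtonine and bleomycin arrays do not overlap, so leaving out an array could not turn it. Without homoharringtonine replicate 1, 2 or 3 the calls numbered 0, 0 and 20, without bleomycin replicate 1, 2 or 3 they numbered 181, 0 and 1, and without vehicle replicate 1, 2 or 3 they numbered 0, 0 and 0. The limma fit on the 6 arrays of both groups alone called 0 probe sets, with 3817 at an unadjusted p under 0.05, against 4609 with all 9 arrays. Among the leave-one-out fits with 0 calls the unadjusted number was between 3897 and 4421.

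**Figure D1:**
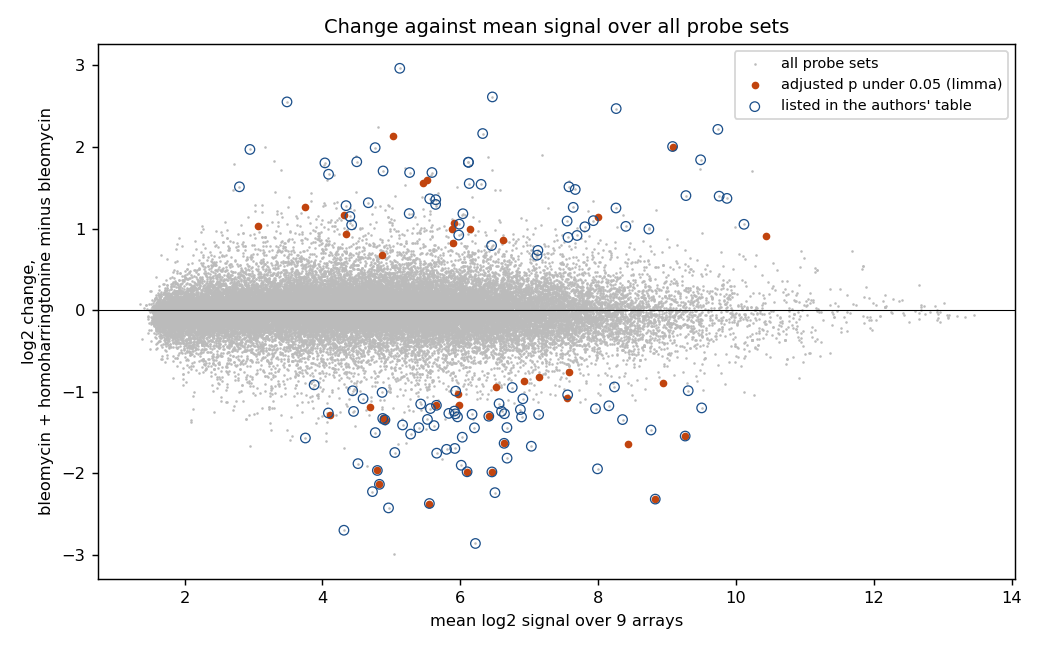
Each grey point is 1 of 41345 probe sets, with its mean log2 signal over the 9 arrays on the x axis and its log2 change, homoharringtonine minus bleomycin lungs, on the y axis. The 39 filled points passed an adjusted p under 0.05 in limma, the 116 open circles are listed in the authors' table for this comparison, and 12 probe sets are both.

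The arrays had medians between 4.49 and 4.57 and lower quartiles between 3.21 and 3.24. The median log2 change over all probe sets was -0.0042. On the leading principal component, with 33.9% of the variance, homoharringtonine arrays lay at 2.5, 2.8 and 21.5, bleomycin arrays at 16, 48.4 and 46.6 and vehicle arrays at -33.2, -48.5 and -56.1. Among the bleomycin arrays replicate 1 thus stood apart from the other two, toward the vehicle arrays, and homoharringtonine replicate 3 lay toward the bleomycin arrays. Without regard to a test, the 3 homoharringtonine arrays lay above or below all 3 bleomycin arrays at 14% of probe sets, 6.19% higher and 7.79% lower. Gene symbols were at hand for 2010 probe sets, those in the authors' lists of changes for at least 1 comparison. Among these the shares were 25.8% higher and 22.2% lower, and the median log2 change was 0.19. Of the 2010, 1156 had a higher and 854 a lower mean with homoharringtonine. The lists of changes rest on these same arrays, so counts over named genes are not independent of them. The shares of 25.8% and 22.2% pool genes that rose and genes that fell with bleomycin. They are thus no matched background for a list whose named members mostly rose, or mostly fell, with bleomycin. Of the lung markers, the club cell enzyme Cyp2f2 read 10.22, 10.48 and 9.73 in homoharringtonine lungs, 9.40, 8.97 and 8.90 in bleomycin lungs and 10.98, 11.30 and 11.07 in vehicle lungs, while no marker of T cells or red cells carried a name.

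Several of the genes that fell are inducible by glucocorticoids. Of 21 listed genes 18 had a name, all 18 had a lower mean with homoharringtonine, 9 were called lower and 14 had arrays that did not overlap, with a median log2 change of -1.16. Map3k6, Adm, Fst and Serpina3n were put in the list knowing that they fell. Without them 5 of 14 named genes were called lower and 10 did not overlap, with a median of -1.04. Among all 2010 named probe sets 22.2% were lower with no overlap and 20 were called lower. Over all probe sets 0.0556% were called lower. The other members were also chosen with earlier results of these data known, so the list was not tested. Fkbp5, a co-chaperone that restrains the glucocorticoid receptor and is induced by it, had log2 signals of 5.67, 6.06 and 6.28 in homoharringtonine lungs, 8.14, 8.07 and 7.75 in bleomycin lungs and 5.20, 5.55 and 5.41 in vehicle lungs. Every homoharringtonine array lay more than 1 log2 unit below every bleomycin array and above every vehicle array. Fkbp5 fell 3.96-fold (log2 change -1.98 ± 0.18, SE, adjusted p = 0.0175). Its difference from vehicle lungs was 0.61 (adjusted p = 0.157), and that of bleomycin from vehicle lungs was 2.60 (adjusted p = 0.000626).

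Pdk4, the kinase that switches off pyruvate dehydrogenase when fatty acids are burned, read 5.65, 5.81 and 5.62 in homoharringtonine lungs, 7.03, 6.80 and 6.76 in bleomycin lungs and 5.36, 5.32 and 5.46 in vehicle lungs. The homoharringtonine arrays were tight and close to vehicle. The fall was 2.25-fold (-1.17 ± 0.11, SE, adjusted p = 0.0175). Sgk1, a kinase that regulates sodium channels and is induced by steroids, read 7.38, 6.87 and 7.38 with homoharringtonine, 8.22, 8.33 and 8.30 with bleomycin and 7.08, 7.21 and 7.16 with vehicle. Homoharringtonine replicate 2 lay below the vehicle arrays and the other two just above them. Sgk1 fell 2.11-fold (adjusted p = 0.0464). For Map3k6, a stress kinase of the Ask family, signals were 5.46, 5.46 and 5.00 in homoharringtonine lungs, 6.39, 6.67 and 6.34 in bleomycin lungs and 5.08, 5.22 and 5.23 in vehicle lungs, a fall of 2.23-fold (adjusted p = 0.046).

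Tat, the liver enzyme of tyrosine breakdown whose induction by glucocorticoids is a textbook example, was dim in lung. Its signals were 3.96, 4.22 and 4.29 with homoharringtonine, 6.62, 5.93 and 5.82 with bleomycin and 4.04, 4.32 and 3.98 with vehicle. Homoharringtonine and vehicle arrays overlapped, and bleomycin arrays stood alone (3.91-fold, adjusted p = 0.027). Adm, which encodes the vasodilator peptide adrenomedullin, is the exception in the list, since it lay below vehicle too. Its signals were 4.29, 4.12 and 4.33 in homoharringtonine lungs, 5.35, 5.60 and 5.83 in bleomycin lungs and 4.89 in each vehicle lung. The vehicle values are identical in the deposited table, as in 466 of all probe sets, so the vehicle arrays add no spread to its test. The fall against bleomycin was 2.54-fold (adjusted p = 0.0184), and the difference from vehicle was -0.64 (adjusted p = 0.0765).

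List members that missed the threshold included Ddit4, an inhibitor of mTORC1, with a log2 change of -1.28 (adjusted p = 0.0722), and the clock gene Per1, at -0.66 (adjusted p = 0.244). Cdkn1a, the p53-induced cyclin kinase inhibitor p21, had -0.79 (adjusted p = 0.186). The list median against vehicle was 0.66 with homoharringtonine and 1.52 with bleomycin. The labels give neither the hour of sampling nor a batch.

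Metallothioneins bind zinc and copper and rise with metals, steroids and inflammation. Mt2 read 8.75, 7.90 and 8.84 in homoharringtonine lungs, 10.54, 10.89 and 11.02 in bleomycin lungs and 7.16, 7.33 and 7.04 in vehicle lungs. All homoharringtonine arrays lay between the other groups. Mt2 fell 4.98-fold (-2.32 ± 0.25, SE, adjusted p = 0.0265) and was 1.32 above vehicle (adjusted p = 0.0628). The signals of Mt1 were 8.45, 7.83 and 8.50 with homoharringtonine, against 9.43, 9.74 and 9.63 with bleomycin and 7.16, 7.53 and 6.92 with vehicle. The order of the groups was as for Mt2, with homoharringtonine replicate 2 lowest in its group for both genes. The difference in Mt1 missed the threshold (-1.34 ± 0.21, SE, adjusted p = 0.0712). The zinc importer Slc39a14 had a log2 difference of -1.08 (adjusted p = 0.0792). With it all 3 named of 7 listed zinc genes had arrays below those of bleomycin, beside 22.2% of all named probe sets. Mt2 and Mt1 and the haem oxygenase Hmox1 are the 3 genes of the mineral absorption map in the authors' deposited pathway table, which did not pass a false discovery rate of 0.05 (0.0554).

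A pair of acute-phase serpins fell. Serpina3n, a secreted inhibitor of serine proteases such as neutrophil elastase and granzyme B, read 9.24, 8.79 and 9.30 in homoharringtonine lungs, 10.47, 10.88 and 10.63 in bleomycin lungs and 7.94, 8.09 and 8.03 in vehicle lungs. Its homoharringtonine arrays lay midway, apart from both other groups. The fall was 2.92-fold (-1.54 ± 0.16, SE, adjusted p = 0.026), and the remaining difference from vehicle was 1.09 (adjusted p = 0.0358). Its neighbour Serpina3m read 4.27, 4.23 and 4.29 with homoharringtonine, 5.65, 6.56 and 6.99 with bleomycin and 3.80, 3.94 and 3.72 with vehicle, a fall of 4.39-fold (adjusted p = 0.0464). The bleomycin arrays of Serpina3m spread far more widely than those of homoharringtonine, with replicate 1 lowest. Both probe sets are of the class designed to match 1 sequence, per the authors' table, but the serpin cluster holds close copies, so the split of signal between them is uncertain. Of the 9 named of 18 acute-phase genes all had a lower mean, 2 were called and the median was -0.61. Among all 2010 named probe sets 20 were called lower. Saa3, a serum amyloid made in inflamed lung, read 6.45, 5.91 and 7.64 with homoharringtonine and 8.84, 10.02 and 7.86 with bleomycin, and its adjusted p was 0.179.

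Fst, which encodes follistatin, the secreted trap of activins, was the called member of the TGF-beta list. Signals were 5.78, 5.31 and 5.81 in homoharringtonine lungs, 7.23, 7.60 and 8.01 in bleomycin lungs and 5.23, 4.69 and 5.24 in vehicle lungs. The homoharringtonine arrays all lay above the vehicle arrays and far below bleomycin. Fst fell 3.95-fold (-1.98 ± 0.24, SE, adjusted p = 0.0439). The median of the 10 named TGF-beta genes was -0.64, with 8 of 10 lower. Among them Tgfbi, a matrix protein induced by TGF-beta, had a log2 difference of -1.10 (adjusted p = 0.0682), Fstl1 of -0.65 (adjusted p = 0.0682) and Ctgf, a matricellular protein, of -0.89 (adjusted p = 0.104).

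Of 17 listed leukocyte integrins and Ms4a family genes 7 had a name, of which 6 had lower means, 1 had a higher mean and Itgam and Ms4a4a were called lower, with a median of -0.57. The member with a higher mean was Ms4a4c (0.54, adjusted p = 0.395). Calls on the lower side numbered 20 among all 2010 named probe sets. Itgam is CD11b, the alpha chain of the complement receptor on monocytes, neutrophils and recruited macrophages. It read 5.97, 6.13 and 6.20 in homoharringtonine lungs, 7.30, 7.88 and 8.03 in bleomycin lungs and 6.04, 5.98 and 6.20 in vehicle lungs. The homoharringtonine and vehicle arrays covered the same range. Itgam fell 3.10-fold (-1.63 ± 0.18, SE, adjusted p = 0.0316), with a difference from vehicle of 0.03 (adjusted p = 0.961). Ms4a4a, a tetraspan protein of macrophages, read 4.44, 4.71 and 5.32, against 6.59, 7.37 and 7.62 with bleomycin and 4.54, 4.59 and 4.81 with vehicle. It had the largest fall of the named called genes, 5.17-fold (-2.37 ± 0.29, SE, adjusted p = 0.0448), with bleomycin replicate 1 the lowest of its group. Beside these results, the summed level of the named monocyte and macrophage markers Cd68 and Itgam ranged over 8.06 to 8.68 in homoharringtonine lungs, 9.31 to 9.65 in bleomycin lungs and 7.50 to 7.64 in vehicle lungs. That sum includes Itgam itself, and only 2 of the 4 listed markers had a name. Cd68 alone had a log2 difference of -0.79 (adjusted p = 0.214). The part of such cells in the falls of Itgam and Ms4a4a was not tested.

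The next 3 called genes, Itgb3, Gab2 and Lgmn, are in none of the lists. Itgb3, the beta chain of the vitronectin receptor, read 6.50, 6.55 and 6.61 in homoharringtonine lungs and 7.23, 7.47 and 7.57 in bleomycin lungs, with vehicle lungs at 6.78, 6.74 and 6.84. The homoharringtonine arrays were below vehicle as well. The fall was 1.83-fold (adjusted p = 0.0448). Gab2, a docking protein that links cytokine and Fc receptors to PI3 kinase, read 7.02, 6.87 and 6.74, against 7.85, 7.62 and 7.62 with bleomycin and 6.86, 6.88 and 6.87 with vehicle (1.77-fold lower, adjusted p = 0.046). Lgmn, a lysosomal asparaginyl endopeptidase abundant in macrophages, read 8.91, 8.84 and 9.08, against 9.64, 9.95 and 9.91 with bleomycin and 7.97, 8.08 and 8.06 with vehicle. It stayed 0.90 above vehicle (adjusted p = 0.0251), with a fall of 1.85-fold (adjusted p = 0.046).

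The remaining named genes that fell have diverse roles. Peg3, an imprinted zinc finger gene expressed from the paternal copy, read 5.98, 6.04 and 5.65 in homoharringtonine lungs, 7.25, 7.06 and 7.27 in bleomycin lungs and 6.15, 6.09 and 6.25 in vehicle lungs. All 3 homoharringtonine arrays lay below the vehicle arrays, with no call (adjusted p = 0.329). The fall against bleomycin was 2.46-fold (adjusted p = 0.0184). Myrip, which tethers secretory vesicles to myosin, was 2.03-fold lower (adjusted p = 0.0265), and Nt5dc2, a nucleotidase-domain protein, was 1.93-fold lower (adjusted p = 0.046). Lamb1, the laminin beta 1 chain of basement membranes, read 7.32, 7.28 and 7.29 with homoharringtonine, 8.08, 8.17 and 7.92 with bleomycin and 7.25, 7.37 and 7.46 with vehicle (1.70-fold lower, adjusted p = 0.0464). Olfr920, an olfactory receptor gene, read 4.48, 4.78 and 4.22, against 5.98, 5.71 and 5.78 with bleomycin and 4.25, 4.16 and 4.53 with vehicle (2.51-fold lower, adjusted p = 0.0448); no detection call was at hand for so dim a probe set.

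Of the named genes that rose, Lyz1 had the largest change. Lyz1 is a lysozyme that in mouse lung marks type 2 alveolar cells, which make surfactant. It read 9.87, 9.34 and 9.39 in homoharringtonine lungs, 7.82, 7.43 and 7.33 in bleomycin lungs and 10.19, 10.00 and 10.37 in vehicle lungs. All homoharringtonine arrays lay above bleomycin and below vehicle. Lyz1 rose 4.02-fold (2.01 ± 0.19, SE, adjusted p = 0.0175), and its difference from vehicle was -0.66 (adjusted p = 0.147). Krt23, an epithelial keratin, read 4.86, 4.73 and 4.79 against 4.14, 4.12 and 4.11 with bleomycin and 5.64, 5.76 and 5.60 with vehicle. Its change was the smallest of the called genes (1.59-fold, adjusted p = 0.046), and it stayed below vehicle (-0.87, adjusted p = 0.0101).

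Calcrl, the receptor that with its Ramp partners binds adrenomedullin, is abundant on lung capillaries. Against bleomycin lungs Calcrl was higher and its ligand gene Adm lower, while against vehicle lungs both had lower means. The signals of Calcrl were 10.82, 10.59 and 10.42 in homoharringtonine lungs, 9.72, 9.60 and 9.77 in bleomycin lungs and 11.00, 10.92 and 11.07 in vehicle lungs. The groups were ordered with no overlap. Calcrl rose 1.88-fold (0.91 ± 0.12, SE, adjusted p = 0.046). Ms4a1, the B cell antigen CD20, read 5.47, 5.91 and 5.54, against 3.65, 4.27 and 4.33 with bleomycin and 6.63, 6.62 and 6.76 with vehicle. The groups again did not overlap, and all 3 bleomycin signals lay below the medians of the arrays. Ms4a1 rose 2.94-fold (1.55 ± 0.19, SE, adjusted p = 0.0448).

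Car8, a carbonic anhydrase relative that binds the inositol trisphosphate receptor, read 8.19, 8.47 and 8.21 in homoharringtonine lungs, 7.32, 7.06 and 7.05 in bleomycin lungs and 8.47, 8.58 and 8.63 in vehicle lungs (2.21-fold higher, adjusted p = 0.026). Dzip3, an RNA-binding ubiquitin ligase, had homoharringtonine arrays that overlapped the vehicle arrays. Its signals were 6.66, 6.42 and 6.42 with homoharringtonine, against 5.48, 5.42 and 5.60 with bleomycin and 6.31, 6.35 and 6.59 with vehicle (2.00-fold, adjusted p = 0.0394). Rnase6, an antimicrobial ribonuclease, rose 1.99-fold (adjusted p = 0.046). Trmt1l, a relative of tRNA methyltransferases, rose 1.81-fold (adjusted p = 0.038), and Senp7, a SUMO protease, rose 1.77-fold (adjusted p = 0.046). Gm13816, a predicted gene, read 5.97, 6.08 and 5.92, against 4.86, 4.98 and 4.94 with bleomycin and 6.81, 6.84 and 6.84 with vehicle. Its replicates were among the tightest, and the rise was 2.09-fold (adjusted p = 0.0175).

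The other 9 called probe sets have no gene name here. The 3 lower ones changed by -1.65 to -1.19 and the 6 higher ones by 0.94 to 2.14. The brightest, probe set 17550428, read 8.11, 8.11 and 7.73 in homoharringtonine lungs, 9.77, 9.68 and 9.44 in bleomycin lungs and 7.50, 7.77 and 7.84 in vehicle lungs.

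**Figure D2:**
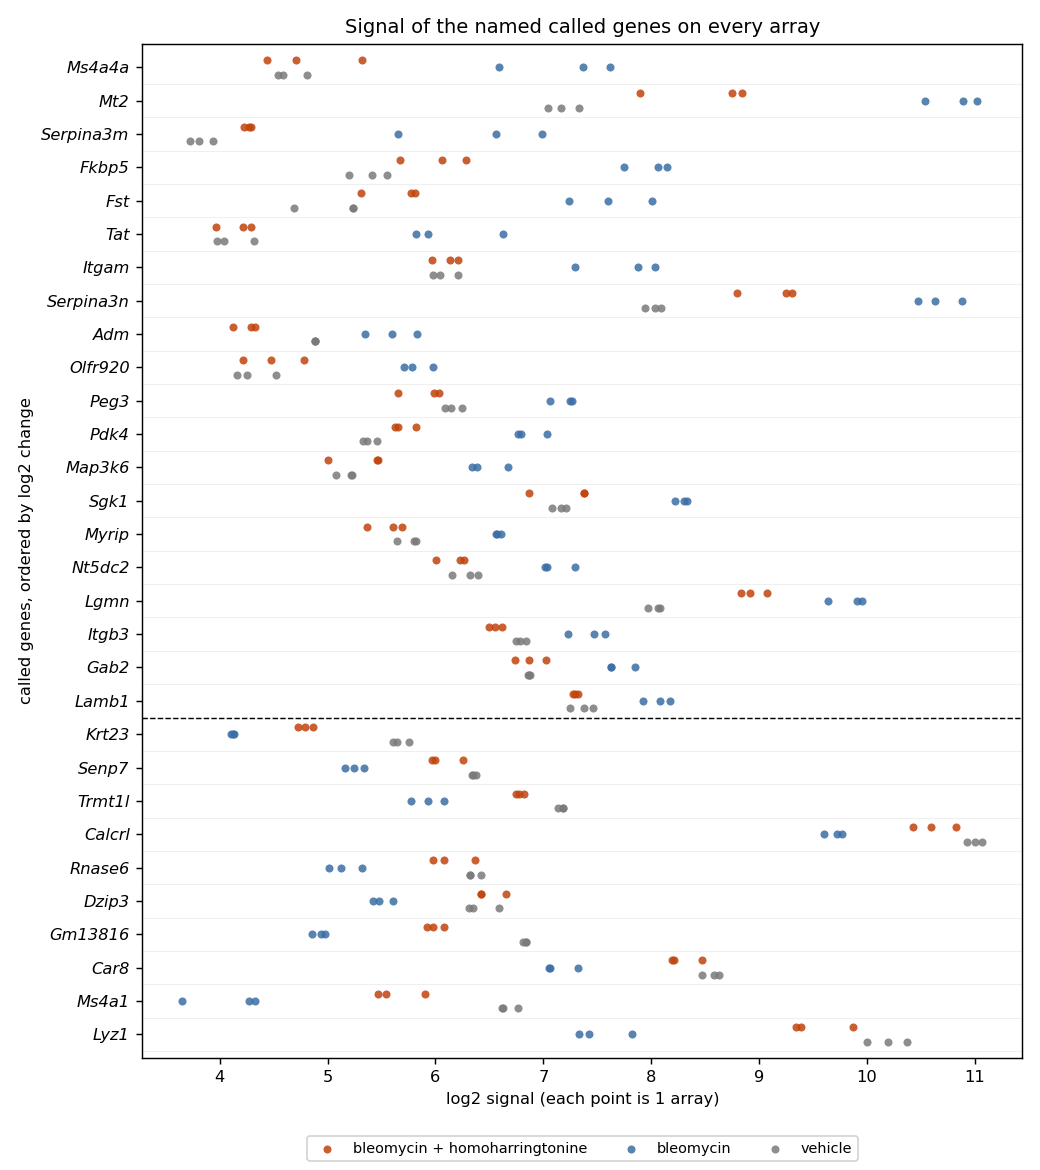
Log2 signal (x axis) of the 30 named called genes on each of the 9 arrays, with homoharringtonine, bleomycin and vehicle arrays on separate lines within each gene and genes ordered by log2 change. Above the dashed line are the 20 genes that fell and below it the 10 that rose; no homoharringtonine point overlaps the bleomycin points of its gene.

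The authors' deposited table for this comparison, made with a local pooled error test, lists 116 probe sets (0.281%), 50 higher and 66 lower with homoharringtonine. In 94 of them the arrays of the groups do not overlap, 42 have a limma adjusted p under 0.1, and 12 are among the 39 called here. By size the folds in the authors' deposited table are led by the immunoglobulin segment Ighv1-9 (7.81) on the higher side and, on the lower side, by Arg1, Stfa2l1 and Retnlg, which are expressed in myeloid cells and differ widely among the bleomycin arrays. Arg1, the arginase of alternatively activated macrophages, read 5.17, 5.21 and 6.20 in homoharringtonine lungs, 7.30, 8.82 and 9.04 in bleomycin lungs and 4.65, 4.90 and 4.71 in vehicle lungs. Its fold of -7.27 is the largest fall in the authors' deposited table, while limma gave an adjusted p of 0.0682. The groups did not overlap, but homoharringtonine replicate 3 was the highest and bleomycin replicate 1 the lowest of its group. Retnlg, a resistin-like protein of neutrophils, read 3.73, 3.94 and 4.34, against 4.94, 6.46 and 7.89 with bleomycin and 4.52, 4.16 and 4.68 with vehicle (adjusted p = 0.178). Stfa2l1, a stefin of granulocytes, read 3.24, 3.53 and 3.18, against 4.46, 6.67 and 6.91 with bleomycin and 3.57, 3.49 and 3.74 with vehicle (adjusted p = 0.116). The Stfa2l1 probe set is of the class that can cross-hybridise, and its homoharringtonine signals lay near the lower quartile of the arrays. Over the 116 probe sets, the bleomycin value closest to the homoharringtonine mean came from replicate 1 in 82, from replicate 2 in 14 and from replicate 3 in 20. Among the 39 called probe sets it came from replicate 1 in 18.

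In the authors' deposited pathway table for this comparison, 9 of 118 maps had a false discovery rate under 0.05, led by complement and coagulation cascades with 8 of 92 genes (false discovery rate 1.01e-07). The extracellular matrix receptor map of the authors' deposited pathway table held Col1a1, Spp1, Thbs1 and Tnc (4 of 88 genes, false discovery rate 0.0174). The cytokine receptor map of the authors' deposited pathway table held Ccl2, Ccr1, Il1r2, Il33, Tnfrsf12a and Tnfsf10 (6 of 296 genes, false discovery rate 0.0113).

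Neutrophil and monocyte genes had large mean differences and wide bleomycin arrays. Of 14 listed neutrophil genes 8 had a name, 7 of these were lower and none was called; the median of -1.40 was the lowest of all lists. Il1r2, the decoy receptor of interleukin 1, read 4.06, 3.91 and 3.93 in homoharringtonine lungs, 4.55, 6.23 and 6.77 in bleomycin lungs and 3.87, 3.70 and 3.63 in vehicle lungs (adjusted p = 0.177). Ccl2, the chief monocyte attractant, read 5.01, 4.90 and 5.15, against 5.45, 6.74 and 7.20 with bleomycin and 4.86, 4.67 and 4.61 with vehicle (adjusted p = 0.192). In both genes bleomycin replicate 1 lay close to the homoharringtonine arrays. The summed level of S100a8 and S100a9, calcium-binding proteins of neutrophils, was 5.93 to 6.26 with homoharringtonine, 6.52 to 8.45 with bleomycin and 5.73 to 6.66 with vehicle. The exception in the list is Hdc, the histidine decarboxylase that makes histamine, which read 6.33, 6.96 and 6.21, against 5.60, 5.48 and 5.50 with bleomycin and 6.63, 6.73 and 6.87 with vehicle (0.97, adjusted p = 0.1).

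Of 27 genes of monocyte-derived macrophages 22 had a name, 21 had a lower mean, 16 had arrays below all bleomycin arrays and Itgam was called; the median was -0.80. Over all probe sets 7.79% lay below in this way and 0.0556% were called lower, and over named probe sets 22.2% lay below. C1qb, a chain of complement C1q made by tissue macrophages, read 8.25, 7.77 and 8.70 in homoharringtonine lungs, 9.42, 9.62 and 9.20 in bleomycin lungs and 6.78, 6.97 and 6.70 in vehicle lungs. It was above vehicle in every homoharringtonine array (1.42, adjusted p = 0.0428) and below bleomycin without a call (-1.17, adjusted p = 0.1). Msr1, a scavenger receptor, had a log2 difference of -1.56 (adjusted p = 0.107). The list median against vehicle was 0.99 with homoharringtonine and 1.87 with bleomycin. Genes of resident alveolar macrophages were mixed, with 6 of 8 named members higher and a median of 0.23. None of these 8 had arrays above all bleomycin arrays, and 1 had arrays below them. Of these 8 genes Marco, a scavenger receptor, had a log2 difference of -1.03 (adjusted p = 0.17), and Ear1, an eosinophil-type ribonuclease, of 0.54 with overlapping arrays.

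**Figure D3:**
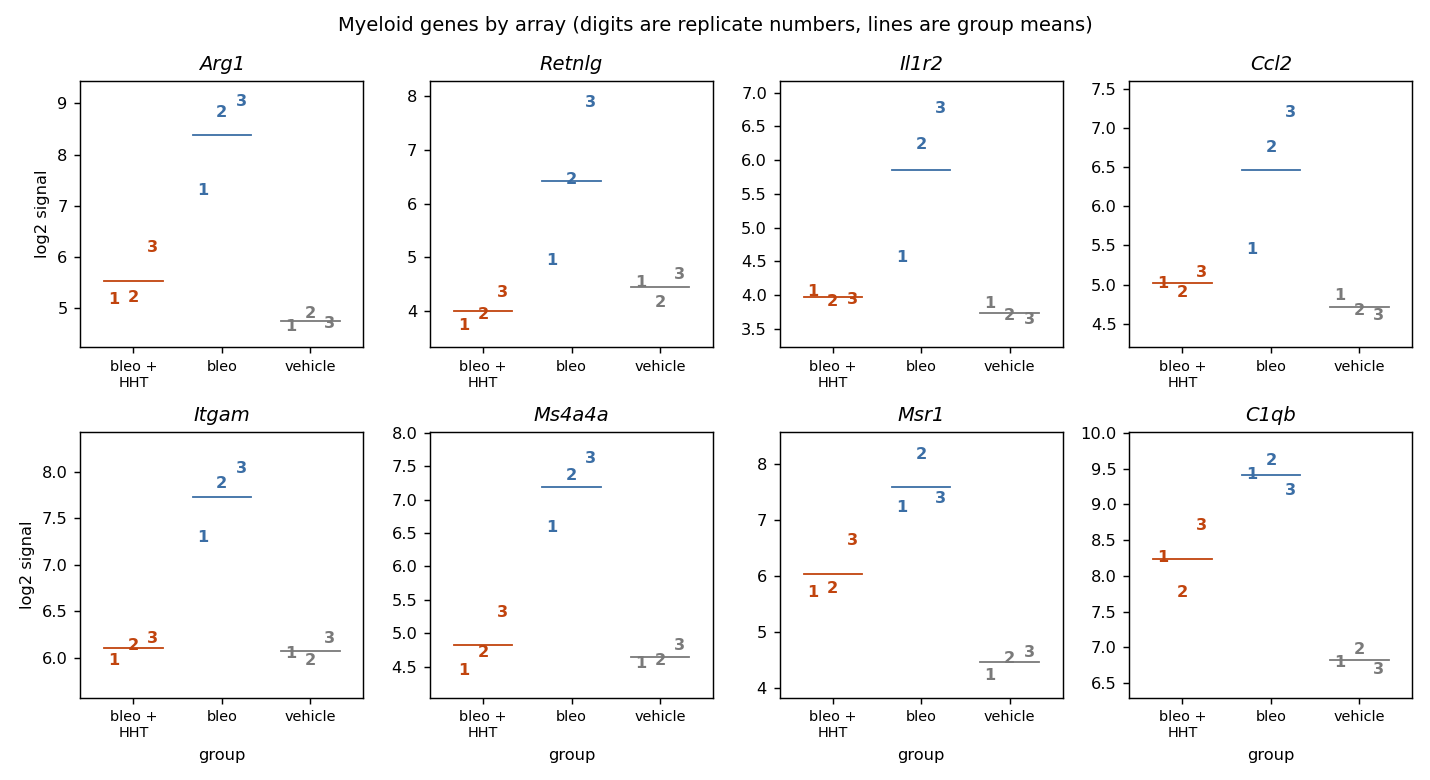
Log2 signal (y axis) of 8 myeloid genes on each array, with digits for the replicate number and lines for group means, for bleomycin + homoharringtonine (bleo + HHT), bleomycin (bleo) and vehicle lungs. Bleomycin replicate 1 is the lowest of its group for Arg1, Retnlg, Il1r2, Ccl2, Itgam, Ms4a4a and Msr1, while for C1qb replicate 3 is lowest.

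Genes of the matrix lists had lower means with homoharringtonine almost throughout, and none of those lists' members passed the test; Lamb1, which is called, is in none of them. All 13 named of 18 collagen genes were lower, 11 of them with no overlap, beside 22.2% of all named probe sets, with a median of -0.58. Their median for bleomycin against vehicle was 1.33. Names were given through changes listed on these same arrays, so these counts are not independent of that choice. Col6a3, a chain of the beaded-filament collagen VI, read 7.80 in each of the homoharringtonine lungs, 8.50, 9.04 and 8.88 in bleomycin lungs and 7.26, 7.42 and 7.42 in vehicle lungs. It came closest to a call among the collagens (-1.01 ± 0.14, SE, adjusted p = 0.0534). The homoharringtonine values of Col6a3 are alike to the digits shown, so those arrays add almost no spread to its test. Col5a1, which nucleates collagen I fibrils, read 6.83, 6.62 and 7.20, against 7.91, 8.20 and 7.82 with bleomycin and 6.33, 6.37 and 6.21 with vehicle (-1.10, adjusted p = 0.063). Of the 17 named of 26 glycoprotein and cross-linking genes 16 were lower, 10 had no overlap and the median was -0.80. Lox, the lysyl oxidase that cross-links collagen and elastin, read 7.72, 6.97 and 8.16, against 9.19, 9.71 and 9.80 with bleomycin and 6.62, 6.77 and 6.98 with vehicle. Its lowest bleomycin array was about 1 log2 unit above its highest homoharringtonine array, yet the spread within groups left the adjusted p at 0.064 (-1.95 ± 0.29, SE). The adhesive glycoprotein Tnc had a log2 difference of -1.67 (adjusted p = 0.1) and stayed 2.12 above vehicle (adjusted p = 0.0359), and fibronectin (Fn1) had -1.04 (adjusted p = 0.11) and stayed 1.53 above vehicle (adjusted p = 0.0288).

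Homoharringtonine replicate 2 had the lowest of its group for Lox, Tnc, Fn1, Timp1 and Col5a1, and replicate 3 the highest. Of 14 named matrix proteases and inhibitors 13 were lower with a median of -0.72. Timp1, the inhibitor of metalloproteinases, read 5.91, 5.26 and 6.75, against 7.16, 8.40 and 8.07 with bleomycin and 3.93, 4.21 and 4.44 with vehicle (-1.90, adjusted p = 0.13). All 5 named genes of contractile cells had arrays below those of bleomycin, beside 22.2% of all named probe sets, with a median of -0.80. Their median for bleomycin against vehicle was 1.09, and they too were named through listed changes. Acta2, the smooth muscle actin of myofibroblasts, read 8.31, 8.00 and 8.21, against 8.96, 9.47 and 9.20 with bleomycin and 8.12, 8.36 and 7.86 with vehicle (-1.04, adjusted p = 0.0791). The homoharringtonine and vehicle arrays of Acta2 overlapped (difference 0.06, adjusted p = 0.902). Genes of resident fibroblasts and lipofibroblasts had higher means, in 9 of 9 named members with a median of 0.45. The transcription factor Tcf21, for instance, had a log2 difference of 0.80 (adjusted p = 0.191).

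Lists of epithelial genes had medians of opposite sign. All 9 named of 19 type 2 cell genes had higher means, 6 with no overlap, beside 25.8% of all named probe sets, and Lyz1 was called; the median of 0.92 was the highest of all lists, against -0.48 for homoharringtonine and -1.22 for bleomycin, both against vehicle. Hc, complement component 5, read 10.74, 9.90 and 10.20 in homoharringtonine lungs, 9.25, 7.66 and 7.29 in bleomycin lungs and 10.76, 10.96 and 10.87 in vehicle lungs. Its means differed 4.65-fold, but bleomycin replicate 1 lay over 1 log2 unit above the others and the adjusted p was 0.119. Acoxl, an acyl-CoA oxidase relative, had a log2 difference of 0.92 (adjusted p = 0.102) and lay below vehicle (-1.90, adjusted p = 0.00855). The summed level of Abca3, Lamp3 and Slc34a2 was 11.53 to 12.21 with homoharringtonine, 10.79 to 11.53 with bleomycin and 12.19 to 12.33 with vehicle. Of 14 type 1 cell genes 5 had a name, all with higher means and 2 with no overlap, with a median of 0.435 and a lowest of 0.196. The largest difference of that list was in Rtkn2, which marks flat type 1 cells. It was 1.23 (adjusted p = 0.1), and 1.51 at its second probe set (adjusted p = 0.144). Club and ciliated cell genes were higher in 12 of 12 named members (median 0.49), led by the club cell enzymes Aox3 (1.26, adjusted p = 0.0827) and Cyp2f2 (1.05, adjusted p = 0.114). In contrast, 7 of 8 named genes of transitional epithelium, a state between type 2 and type 1 cells, were lower (median -0.75). All 7 had no overlap, beside 22.2% of all named probe sets that were lower with no overlap. The list median for bleomycin against vehicle was 1.20, and names were given through changes listed on these same arrays. Cldn4, the tight junction protein of transitional epithelium, had a log2 difference of -1.27 (adjusted p = 0.1) and stayed 1.29 above vehicle (adjusted p = 0.0624).

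Endothelial genes were higher in 22 of 23 named members of 30, with a median of 0.41, 9 of them higher with no overlap, beside 25.8% of all named probe sets, and Calcrl called. Kdr, the main receptor of vascular endothelial growth factor, read 8.84, 8.66 and 8.34 in homoharringtonine lungs, 8.07, 7.65 and 7.93 in bleomycin lungs and 9.70, 9.84 and 9.89 in vehicle lungs. It did not pass the test against bleomycin (0.73, adjusted p = 0.128) and was below vehicle (-1.20, adjusted p = 0.0275). The summed level of Cdh5, Kdr, Pecam1 and Tek was 10.80 to 11.31 with homoharringtonine, 10.48 to 10.73 with bleomycin and 11.86 to 11.91 with vehicle. Il33, an alarmin of type 2 cells and vessels, read 8.55, 7.79 and 8.27, against 6.97, 6.35 and 6.84 with bleomycin and 8.18, 8.00 and 8.06 with vehicle. The homoharringtonine arrays straddled the vehicle arrays, and the difference from bleomycin missed the threshold (1.48, adjusted p = 0.06).

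Of all 2010 named probe sets 1156 had higher means with homoharringtonine. Named members of the lymphoid and interferon lists all had higher means. For B and plasma cells these were 9 of 20 genes with a median of 0.45, for natural killer cells 6 genes with a median of 0.58 and for interferon-inducible genes 8 genes with a median of 0.64. Of these Ms4a1 was called. Tnfsf10, the death ligand TRAIL, read 6.50, 6.17 and 6.30 in homoharringtonine lungs, 5.30, 4.39 and 4.62 in bleomycin lungs and 7.18, 7.33 and 7.40 in vehicle lungs. Its arrays did not overlap and its adjusted p was 0.0563 (1.55 ± 0.22, SE). Jchain, which joins secreted antibody, read 7.31, 7.16 and 8.55 with homoharringtonine, 6.48, 6.74 and 4.15 with bleomycin and 5.54, 5.85 and 5.81 with vehicle. Every homoharringtonine array lay above vehicle, and bleomycin replicate 3 lay far below its group (1.88, adjusted p = 0.319). The authors' deposited table lists 22 immunoglobulin segments, all higher with homoharringtonine. Their log2 differences ran between 1.05 and 2.97 with a median of 1.81, and 11 are of the class that can cross-hybridise. Arrays above all bleomycin arrays were found in 12, beside 25.8% of all named probe sets. None was called by limma (smallest adjusted p 0.0597). Ighm, the heavy chain of IgM, has a probe set of that class with a difference of 1.01 (adjusted p = 0.243) and another of the unique class with 2.47 (adjusted p = 0.0682).

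**Figure D4:**
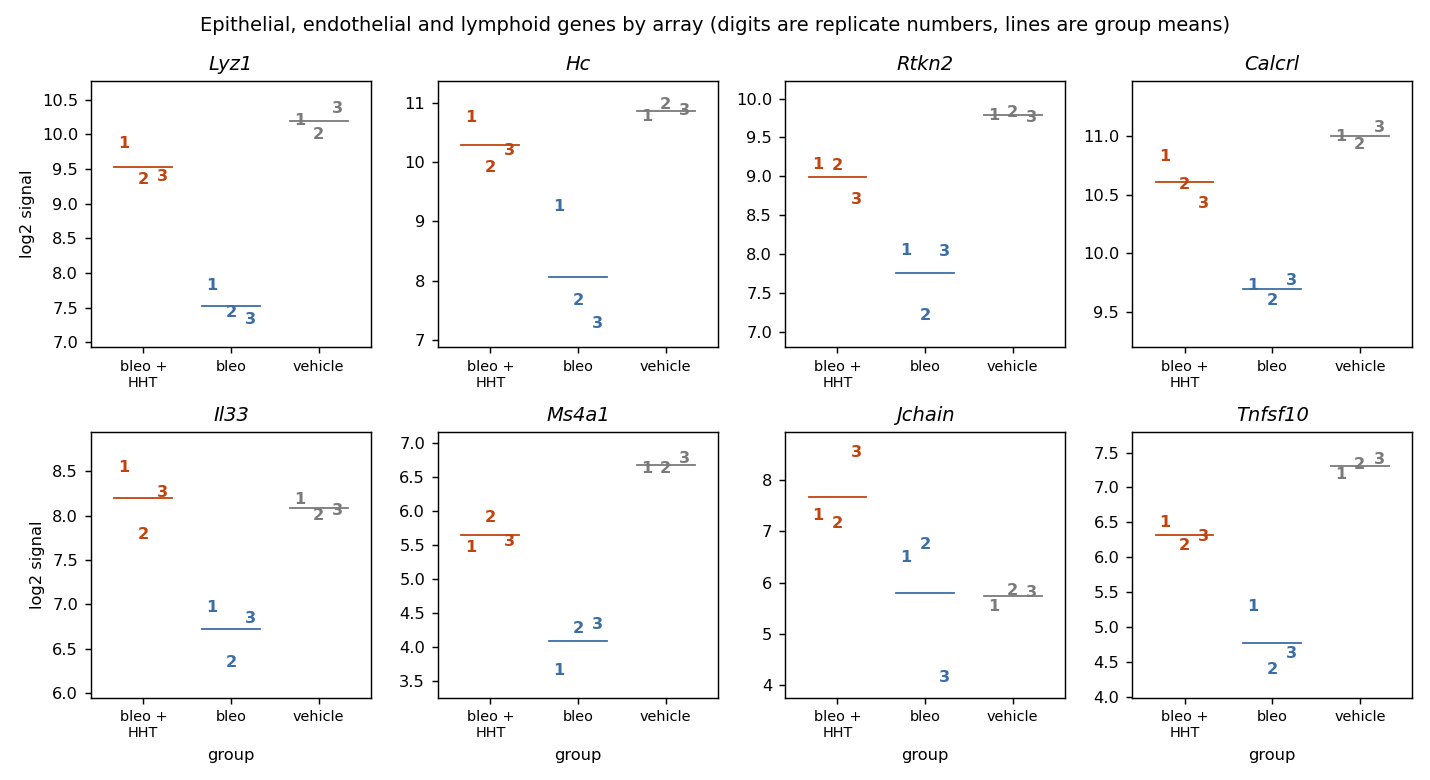
Log2 signal (y axis) of 8 epithelial, endothelial and lymphoid genes on each array, with digits for the replicate number and lines for group means, for bleomycin + homoharringtonine (bleo + HHT), bleomycin (bleo) and vehicle lungs. Homoharringtonine arrays lie above all bleomycin arrays in each panel; for Hc and Tnfsf10 bleomycin replicate 1 is the closest to them and for Jchain bleomycin replicate 3 lies far below its group.

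Because homoharringtonine acts on the ribosome, genes of translation and of amino acid stress were listed too, but few had a name. Of 28 genes of initiation, elongation and ribosomes 4 had a name and none was called. Eif4a2, an initiation helicase, had a log2 difference of 0.74 (adjusted p = 0.0977), and the ribosomal protein genes Rpl32 and Rpsa had -0.67 (adjusted p = 0.121) and -0.45 (adjusted p = 0.266). The 4 named of 27 genes of amino acid stress and the unfolded protein response had a median of -1.11. Slc7a11, the cystine importer induced by Atf4, read 3.72, 3.66 and 3.93 in homoharringtonine lungs, 4.57, 5.12 and 4.82 in bleomycin lungs and 2.61, 2.95 and 2.94 in vehicle lungs. Its homoharringtonine arrays lay between the other groups (-1.07, adjusted p = 0.0682). Slc7a5, a leucine importer, had a log2 difference of -1.15 (adjusted p = 0.0995). Of the unstable transcripts, Myc had a log2 difference of -0.84 (adjusted p = 0.201) and Jun of 0.23 (adjusted p = 0.575).

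Proliferation genes had means near those of bleomycin lungs. The 4 named of 25 cell cycle genes all had overlapping arrays and a median of -0.05. Mki67, the proliferation antigen Ki-67, read 7.29, 6.73 and 7.20 in homoharringtonine lungs, 6.76, 7.24 and 7.24 in bleomycin lungs and 6.14, 5.77 and 6.24 in vehicle lungs. Its difference from bleomycin was -0.01 ± 0.20 (SE, adjusted p = 0.995), and its sign turned in 4 of the alternative settings. Top2a, the topoisomerase of dividing cells, had a log2 difference of 0.42 (adjusted p = 0.443) and was above vehicle (1.30, adjusted p = 0.0321).

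**Figure D5:**
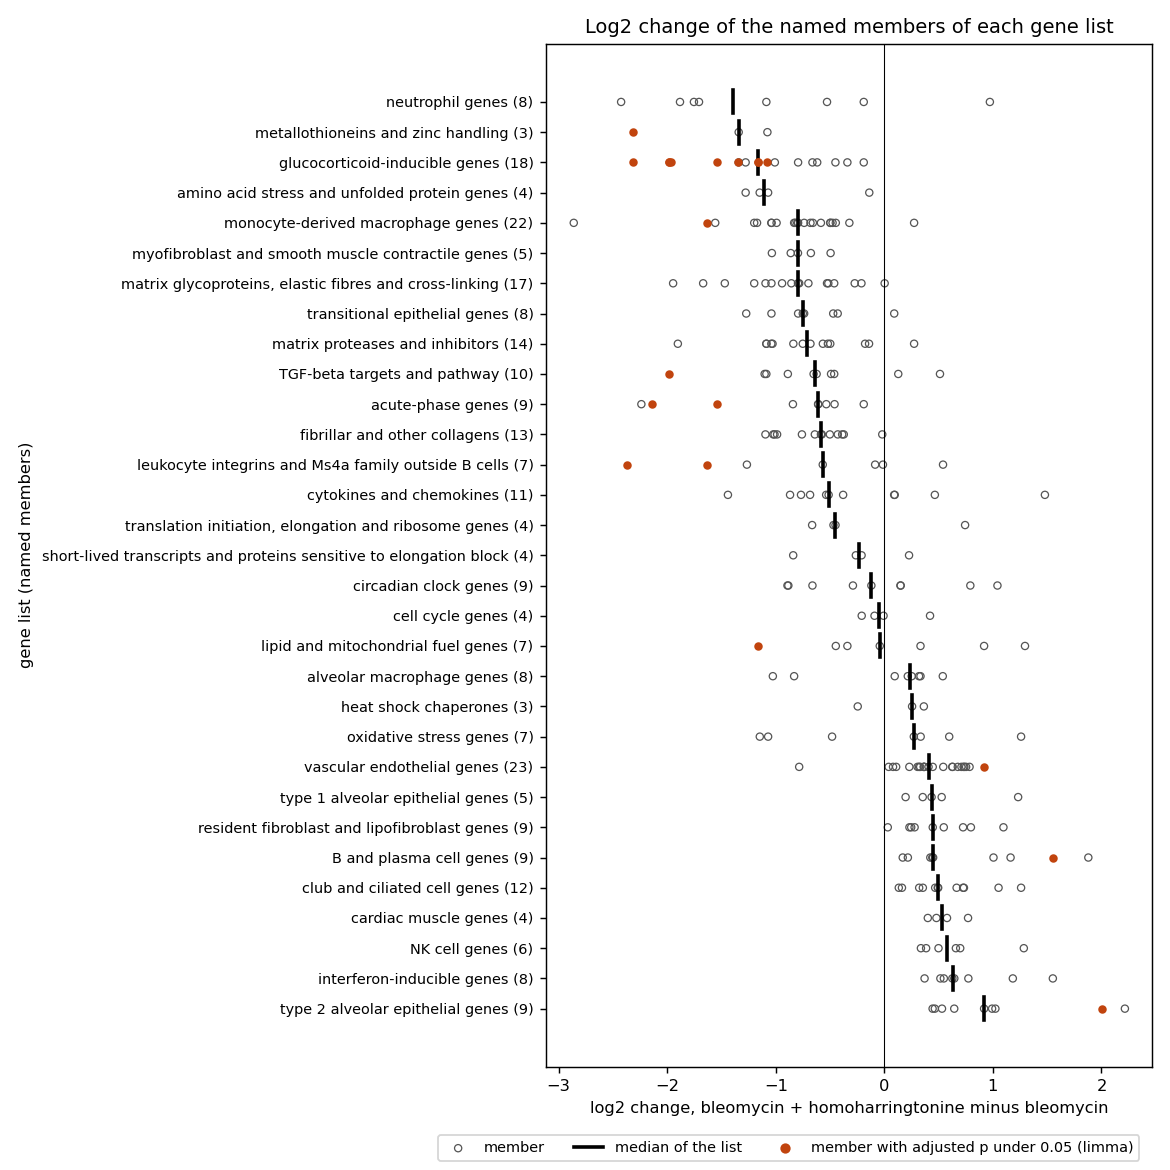
Each point is the log2 change (x axis, homoharringtonine minus bleomycin lungs) of a named member of the gene list on that line, filled where the adjusted p was under 0.05 in limma, and the bar is the list's median. Medians run between -1.40 for neutrophil genes and 0.92 for type 2 alveolar genes. In the glucocorticoid-inducible list 9 points are filled and every named member lies below 0. Of its members 4 were put in knowing that they fell, and without them 5 points are filled. All lists were chosen with earlier results of these data known and were not tested.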

How the data were processed

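Affymetrix arrays measured total RNA of 9 lungs. Affymetrix Power Tools and R 3.5.1 are named in the submitters' processing notes, and neither the normalization nor the genome build is given in the sources used here. All 9 columns of the deposited value table hold log2 signals. The authors' comparison table gives, per the file headers, a signed linear ratio (fold change), a score (the local pooled error statistic) and adjusted p-values, and the authors' pathway table gives p-values and false discovery rates. Log2 values in the value and comparison tables were identical, and the authors' folds matched the group means to a relative difference of 2.2e-07.

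Here, limma 3.58.1 in R 4.3.3 fitted group means to all 9 arrays (6 residual degrees of freedom, prior 2.66), with eBayes, 2-sided tests and Benjamini-Hochberg adjustment over 41345 probe sets at 0.05. Errors are SE. An exact test of 3 against 3 arrays cannot go below 0.1. Arrays limit precision by their number, and no detection call was used. The labels do not say whether replicates are separate cohorts, so p-values measure the spread between these samples. All 36 pairs of arrays differed in their values.

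Members and gene lists were chosen with earlier results of these data known; Map3k6, Adm, Fst and Serpina3n were put in the glucocorticoid list knowing that they change. Lists were therefore not tested. A gene with several probe sets was represented by the brightest. Named genes are the called ones, the 12 largest non-overlapping changes each way above the median signal, 4 of each list by smallest p and the 5 largest folds each way in the authors' table; predicted genes, small RNA and receptor segments were left out unless called. Of 1753 probe sets with a RefSeq gene, 1709 overlap it in GRCm38.p6. The limma script was tested on simulated data. Alternatives covered the arrays fitted, prior, array weights, scaling, a filter on dim probe sets, the replicate number, each array left out and named probe sets alone. Some withheld items are not reported here.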

Additional observations from a re-analysis of the deposited data

How the results depend on the processing

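The 39 calls (16 higher, 23 lower) became 0 in the fit on 6 arrays (smallest adjusted p 0.214), 43 (17 higher, 26 lower) with a trended robust prior, 16 (5 higher, 11 lower) with array weights, 33 (16 higher, 17 lower) after quantile normalization and 30 (10 higher, 20 lower) after median centring, which moved the median of all probe sets to -0.031. Among probe sets above the median signal there were 239 (94 higher, 145 lower) and among named probe sets alone 838 (434 higher, 404 lower), where fewer tests, chosen on these arrays, were adjusted for. Leaving out 1 array gave 0 to 181 calls, 0 to 100 higher and 0 to 81 lower. Of the 39, 35 were among the 181 calls without bleomycin replicate 1, and 13 among the 20 without homoharringtonine replicate 3. The cause of these shifts was not tested. A fit with the replicate number as a block gave 0 calls, 0 higher and 0 lower, with 4410 at an unadjusted p under 0.05. Deviations of same-numbered homoharringtonine and bleomycin arrays correlated at 0.046, -0.044 and -0.005. Against vehicle arrays the correlations were 0.021 to 0.093 for homoharringtonine and -0.137 to -0.031 for bleomycin. Such correlations over all probe sets cannot tell whether the numbers mark cohorts or batches, so pairing was not tested.

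All 30 named called genes kept their direction in 17 settings, which their non-overlapping arrays fixed in advance wherever an array was left out. All 30 missed the threshold in the 6-array fit and with the block. They also missed it without any of homoharringtonine replicates 1 or 2, bleomycin replicates 2 or 3 or a vehicle array. Of 403 recomputed list medians 402 moved by less than the spread over pairs of single arrays. No median larger than that spread changed sign, and sign changes of smaller medians were not counted. The natural killer median was 0.36 among bright probe sets, against 0.58. Of 140 named genes 3 changed sign, none of them called. Cdk1 was at 0.169 without homoharringtonine replicate 2 and 0.0672 without bleomycin replicate 3, against -0.09 with all arrays and -0.29 to 0.169 over single arrays left out. Mki67 was at 0.0232 after quantile normalization, 0.163 without homoharringtonine replicate 2, 0.0735 without bleomycin replicate 2 and 0.0720 without bleomycin replicate 3, and ran over -0.167 to 0.163. Sln was at -0.0278 without homoharringtonine replicate 2 and ran over -0.0278 to 0.774.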

Other observations

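Of 9 named clock genes 5 had lower and 4 had higher means with homoharringtonine. Arntl, which encodes the clock activator BMAL1, read 4.91, 4.93 and 4.89 in homoharringtonine lungs, 5.55, 5.93 and 5.93 in bleomycin lungs and 7.21, 7.03 and 7.29 in vehicle lungs. The homoharringtonine arrays were the farthest from vehicle (log2 difference -2.26, adjusted p = 0.000475), the reverse of the order seen in most called genes, and the difference from bleomycin missed the threshold (-0.89, adjusted p = 0.0597). Dbp, a clock output gene, read 7.92, 7.72 and 7.89 with homoharringtonine, 7.33, 6.80 and 6.26 with bleomycin and 6.71, 7.27 and 6.72 with vehicle (1.04, adjusted p = 0.178). Nfil3, the repressor that opposes Dbp, had a log2 difference of -0.88 (adjusted p = 0.198). The labels give neither the hour of sampling nor a batch, and their part in these values was not tested.

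Of 15 heat shock chaperones 3 had a name, each through a listed change in at least 1 comparison, so unchanged chaperones are not seen. Their medians against vehicle were -1.63 with bleomycin and -1.71 with homoharringtonine. Between homoharringtonine and bleomycin their differences ran from -0.245 to 0.364. Hsph1 read 6.22, 6.47 and 5.84 in homoharringtonine lungs, 5.74, 5.67 and 6.01 in bleomycin lungs and 7.72, 7.90 and 8.03 in vehicle lungs. Its arrays overlapped between homoharringtonine and bleomycin (0.36, adjusted p = 0.487), and homoharringtonine lay below vehicle (-1.71, adjusted p = 0.0106). Hspa1a, the inducible Hsp70, had a log2 difference of 0.26 (adjusted p = 0.577), with a difference from vehicle of -1.38 (adjusted p = 0.0124).

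Atrial muscle genes, which a lung sample can carry in its pulmonary veins, varied between arrays. The summed level of Actc1, Myl7 and Pln was 6.13 to 7.31 with homoharringtonine, 5.86 to 6.30 with bleomycin and 7.01 to 7.76 with vehicle. Of the 4 named cardiac genes all had higher means with homoharringtonine and none was called. Their part in other results was not tested.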
